A study of Mus musculus with 32 samples.

Results

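*Sprr1a*, *Ly6d*, *Tmc5*, *Cpe* and *Lrtm2* were followed as 5 of the 54532 genes counted in the livers of 32 mice. They were picked by name because the deposited counts showed them nearly silent in wild-type (WT) liver, raised in *Cyp2c70* knockout (KO) mice on chow and lowered when these mice received the ileal bile acid transporter (IBAT) inhibitor SC-435. The KO against WT comparison on chow and the comparison of diets within KO mice therefore chose the genes, and values from them are given as a description without a test. The comparison of females with males among KO mice on chow did not choose the genes and was tested, apart from *Tmc5*. SC-435 against chow in WT mice was tested as well. Low levels in WT liver were part of the choice, so an absent rise there is not an independent result.

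All mice were C57BL/6 and 12 weeks old, and the 8 groups of 4 mice were female and male WT and KO mice, each on chow or on chow with 0.006% SC-435 (about 11 mg/kg/day). The KO line was bred from 1 CRISPR-Cas9 founder with a deletion that removes an early exon. *Cyp2c70* makes the protective muricholic acids of rodents, and its loss leaves a more hydrophobic, human-like bile acid pool. Whole liver was sequenced, so that fewer cells of a type and less RNA per cell cannot be told apart in any value below. Expression is given as CPM, the reads of a gene divided by the library total after scaling with its TMM factor, and *Cyp2c70* reads were counted over the whole gene. *Cyp2c70* itself was at 704 ± 104 CPM (SD, n = 4) in female WT mice on chow and 165 ± 12.6 CPM in female KO mice, and at 626 ± 109 and 174 ± 14.8 CPM in males, with no overlap between genotypes. Library totals lay between 36476021 and 44771350 reads, at which 3 reads correspond to between 0.0541 and 0.117 CPM. Male WT chow replicate 1 stood apart by its scaling factor of 0.622, and male WT SC-435 replicate 4 by 768 CPM of *Lcn2*, an acute-phase and epithelial injury gene, against 2.06 to 5.17 CPM in the other 3 mice of its group.

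The 5 genes have little to do with the work of hepatocytes. Sprr1a is a small proline-rich protein that transglutaminases cross-link into the cornified envelope of keratinocytes, and its gene is also known as regeneration-associated in injured neurons. Ly6d is a GPI-anchored surface protein of the Ly6 family, found on stratified epithelia and used as a marker of early B lineage and plasmacytoid dendritic cell progenitors. Tmc5 belongs to the transmembrane channel-like family, carboxypeptidase E (Cpe) trims basic residues from peptide hormone precursors in endocrine and neuronal secretory granules, and Lrtm2 is a membrane protein with leucine-rich repeats. The name ectopic epithelial genes thus covers *Sprr1a* and *Ly6d* better than *Cpe* and *Lrtm2*, and the data are described by gene name.

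In KO mice on chow, *Sprr1a*, *Ly6d*, *Cpe* and *Lrtm2* were higher than in WT mice in both sexes, whereas *Tmc5* was raised in males and hardly detected in females. With SC-435 *Sprr1a* and *Cpe* overlapped the levels of WT mice on chow, while the inhibitor left *Ly6d* a few-fold above WT and left a large part of the *Lrtm2* signal in place. Per kilobase of transcript, *Ly6d* had the highest mean level of the 5 in female KO mice on chow, at 50.2 ± 46.8 CPM per kilobase (SD, n = 4). *Cpe* at 9.42 ± 6.83, *Lrtm2* at 7.88 ± 4.01 and *Sprr1a* at 7.56 ± 6.46 CPM per kilobase did not differ beyond their spread, and *Tmc5* was at 0.0148 ± 0.00315. In male KO mice on chow the order of levels per kilobase was *Ly6d* (52.3 ± 77.7), *Sprr1a* (11.7 ± 11.2), *Cpe* (5.57 ± 6.27), *Lrtm2* (2.10 ± 0.708) and *Tmc5* (0.785 ± 0.427), where neighbours among the first 4 differed by less than the SD of the higher one.

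**Figure D1:**
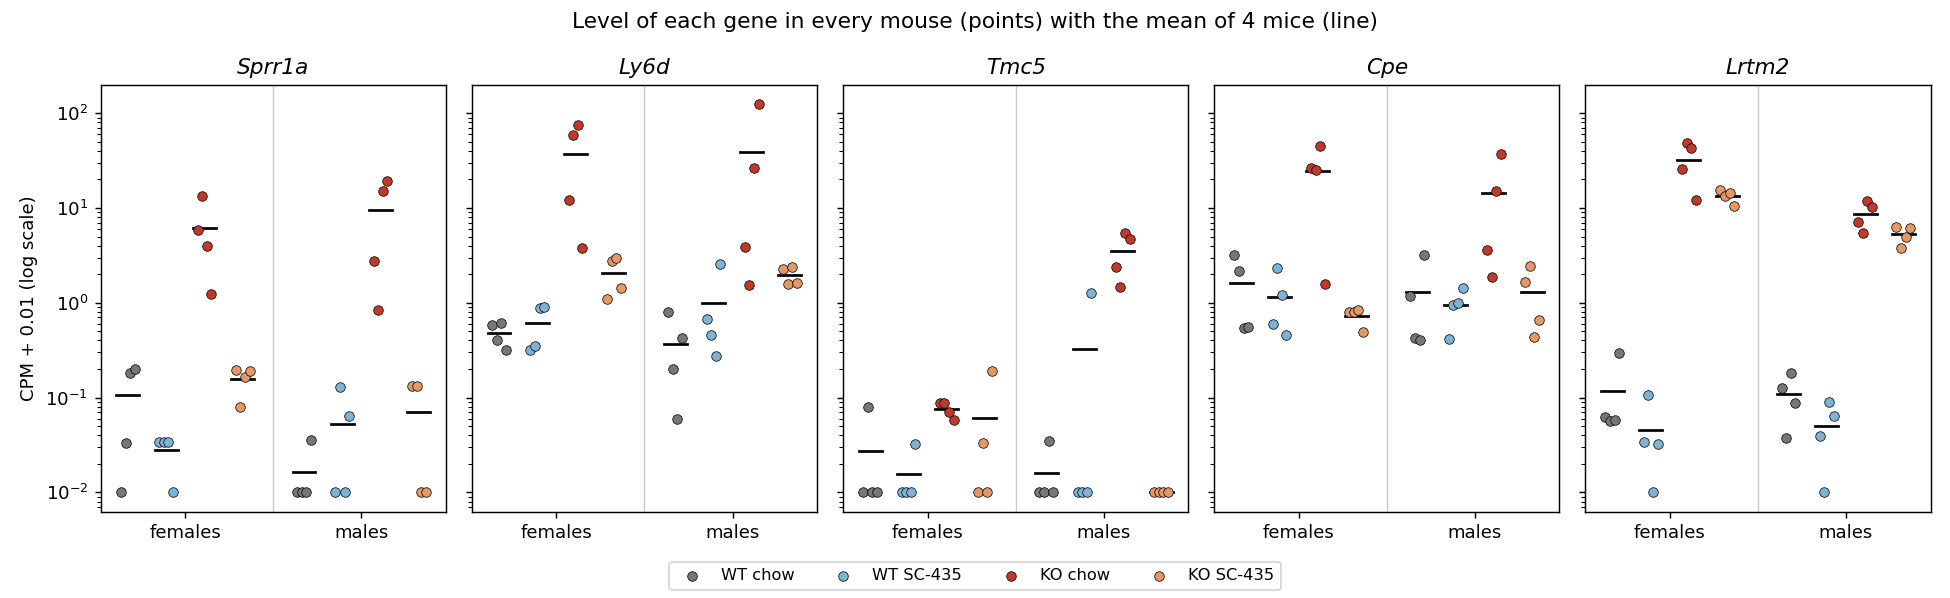
CPM plus 0.01 on a log scale for each gene in each of the 32 mice (points) with the mean of each group of 4 (line), females left and males right in each panel. The means of KO mice on chow stand above those of the other groups for *Sprr1a*, *Ly6d* and *Cpe*, for *Tmc5* among males, and *Lrtm2* stays between 3.75 and 15.6 CPM in KO mice on SC-435.

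*Sprr1a* (ENSMUSG00000050359) is a minus-strand gene at chr3:92483952-92485895 (GRCm38) with 2 exons that sum to 806 bases. In female WT mice on chow it was at 0, 0.0235, 0.170 and 0.190 CPM, and in female KO mice on chow at 5.82, 13.4, 3.93 and 1.24 CPM. Male WT mice on chow held 1 read among them, and male KO mice on chow were at 2.75, 0.83, 14.9 and 19.3 CPM. Every KO mouse on chow was thus above every WT mouse of its sex. The log2 fold change was 5.93 (standard error 0.88) in females, and in males the ratio of pooled counts was 1441 with an exact 95% counting interval of 258 to 56950, which covers counting error only. Leaving out 1 mouse gave female values from 5.22, without KO chow replicate 2, to 6.48, without WT chow replicate 4. On SC-435, female KO mice were at 0.187, 0.0689, 0.155 and 0.182 CPM and male KO mice at 0.122, 0.122, 0 and 0 CPM. These levels overlap those of WT mice on chow, and the mean was 97.6% below KO chow in females and 99.4% below in males. Against WT mice on SC-435, all 4 female KO mice on SC-435 were higher, with 25 against 3 reads and a ratio of pooled counts of 8.34 (exact 95% counting interval 2.55 to 43.2), whereas the male groups overlapped at 10 against 7 reads. The 2 KO chow groups held the highest levels and overlapped each other, while the other 6 groups all lay at or below 0.190 CPM.

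The bases upstream of *Sprr1a* and *Lrtm2* are shown because these are the members that the table of promoters covered. The RefSeq promoter table (GRCm38.p6) held 2 of the 5 genes, and the 250 bases before the annotated start are given from 5′ to 3′ on the transcribed strand, with matches to the AP-1 letters TGANTCA (searched on both strands, which read alike) in capitals, and also those to the TATA box letters, which are TATAAA, on the transcribed strand. The motifs do not overlap. The *Sprr1a* sequence covers chr3:92485882-92486131 and the *Lrtm2* sequence chr6:119330767-119331016, both on the minus strand. RefSeq places the start of *Sprr1a* inside the gene span given above, which ends at 92485895, and distances are counted from the RefSeq start.
Sprr1a: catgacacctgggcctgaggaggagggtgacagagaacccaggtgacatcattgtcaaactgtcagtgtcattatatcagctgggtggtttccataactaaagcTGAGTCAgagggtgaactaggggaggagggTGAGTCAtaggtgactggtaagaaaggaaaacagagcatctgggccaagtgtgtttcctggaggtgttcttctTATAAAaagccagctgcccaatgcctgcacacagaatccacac
Lrtm2: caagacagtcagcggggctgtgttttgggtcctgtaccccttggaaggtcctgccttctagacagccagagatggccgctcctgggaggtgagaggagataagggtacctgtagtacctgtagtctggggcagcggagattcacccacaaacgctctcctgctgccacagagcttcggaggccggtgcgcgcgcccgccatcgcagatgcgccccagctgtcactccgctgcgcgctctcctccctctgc
Of 32851 promoters of the same length, 6.75% hold TGANTCA at least once, 0.338% hold it at 2 or more places, and 7.59% hold TATAAA on the transcribed strand. The *Sprr1a* window holds the AP-1 letters at 2 places, starting 146 and 116 bases before the start, and TATAAA 43 bases before it. The *Lrtm2* window holds neither of these, nor TTCNNNGAA (7.02% of promoters) or AGGTCA (14%), each searched on both strands, and its GC content is 63.2% against 49.6% for *Sprr1a*. The table gives *Lrtm2* a second start, whose window at chr6:119329205-119329454 holds none of these letters either and has a GC content of 62.4%. A match of letters is a description of the sequence and not a measured site.

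The other *Sprr* genes, which neighbour *Sprr1a* in the epidermal differentiation cluster, gave almost no reads. *Sprr3* and *Sprr4*, the protein-coding genes on either side, had 0 reads in all 32 mice. Of 14 other *Sprr* genes, 8 had no read in any mouse, 12 had at most 3 reads in every mouse and 0 reached 1 CPM in any mouse. Among 34 genes of the cornified envelope, 5 could be tested in females (KO against WT on chow), of which 2 rose and 1 fell, beside 5.67% of all genes tested that rose. The 2 were envoplakin and periplakin, cytoskeletal linkers also made in simple epithelia: *Evpl* rose by 1.42 (standard error 0.27, edgeR adjusted p = 0.00815) and *Ppl* by 1.53 (standard error 0.20, edgeR adjusted p = 0.00217) on the log2 scale. *Tchh*, encoding trichohyalin of hair follicles, fell by 1.401 (edgeR adjusted p = 0.0362), as did 1.01% of all genes. In males 0 of 5 passed, and the median log2 change of these genes was -0.22 in females and -0.42 in males. Of 26 genes of stratified epithelium, 7 were tested in females and 1 rose, the keratin gene *Krt80* (log2 fold change 1.59, edgeR adjusted p = 0.0338), and 5 were tested in males and 1 rose, the epithelial transcription factor gene *Grhl1* (log2 fold change 1.95, edgeR adjusted p = 0.0376), beside 0.914% of all genes in males.

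*Ly6d* (ENSMUSG00000034634) lies on the minus strand at chr15:74762056-74763620 (GRCm38) and has 3 exons that sum to 744 bases. It was at 0.569, 0.399, 0.607 and 0.309 CPM in female WT mice on chow and at 12.1, 58.4, 75.1 and 3.81 CPM in female KO mice on chow. Male WT mice on chow were at 0.780, 0.192, 0.0495 and 0.415 CPM, and male KO mice on chow at 3.88, 1.52, 26.3 and 124 CPM. The groups did not overlap in either sex, and the KO mice differed among themselves by a factor of 19.7 in females and 81.6 in males. The log2 fold change was 6.30 (standard error 0.94) in females and 6.89 (standard error 1.52) in males, and leaving out 1 mouse gave 5.73 to 6.70 in females and 4.94, without KO chow replicate 4, to 7.50, without WT chow replicate 1, in males. On SC-435, KO mice were at 1.10, 2.76, 2.99 and 1.41 CPM in females and at 2.26, 1.56, 2.35 and 1.61 CPM in males. The male range on SC-435 reached above the lowest male KO mouse on chow, whereas the female ranges did not meet. All 4 KO mice on SC-435 were above every WT mouse on chow in both sexes, by a ratio of means of 4.38 in females and 5.42 in males. Against WT mice on SC-435 the ratio was 3.42 in females, without overlap, and 1.98 in males, where the groups overlapped. The order of group means was male KO chow, female KO chow, female KO SC-435, male KO SC-435 and then the 4 WT groups, with overlap within each of these pairs and among the WT groups.

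The Ly6 and uPAR family holds 31 genes besides *Ly6d* in the table. Of these, 11 were tested in females and 4 rose in KO mice on chow, beside 5.67% of all genes. *Ly6c2*, a monocyte gene, rose by 1.69 (standard error 0.38, edgeR adjusted p = 0.0168), and *Ly6e*, an interferon-inducible gene with the highest CPM of the family, by 1.53 (standard error 0.24, edgeR adjusted p = 0.00399), from 275 to 803 CPM. *Plaur*, the urokinase receptor gene, rose by 1.22 (edgeR adjusted p = 0.0352). *Lynx1*, the nearest protein-coding gene to *Ly6d* on one side at a gap of 9010 bases, rose by 1.12 (edgeR adjusted p = 0.0284), from 1.45 to 3.17 CPM. In males 0 of 10 passed, where 0.914% of all genes rose. *Lynx1* went from 1.26 to 3.32 CPM in males (log2 fold change 1.45, standard error 0.51, edgeR adjusted p = 0.213). With SC-435 1 of 10 fell in female and 3 of 10 in male KO mice, beside 3.7% and 4.57% of all genes.

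Markers of the cells that can carry Ly6d moved unequally beside it. Of 10 B cell markers, 0 of 7 tested changed in female and 0 of 6 in male KO mice on chow, and their summed level spanned 3.23 to 9.48 CPM in female KO mice against 4.61 to 8.58 CPM in WT mice. Of 6 plasmacytoid dendritic cell markers, 4 of 4 tested rose in females and 0 of 3 in males, including *Siglech* (log2 fold change 1.61, edgeR adjusted p = 0.0118), with sums of 2.62 to 5.01 CPM in KO against 0.855 to 1.47 CPM in WT females. In males the sums were 1.81 to 5.27 CPM in KO against 0.848 to 1.69 CPM in WT mice on chow. The median log2 change of the plasmacytoid markers tested was 1.68 in females and 1.98 in males. Of all genes tested, 5.67% rose in females and 0.914% in males. Their part in the *Ly6d* level was not tested.

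*Tmc5* (ENSMUSG00000030650) lies on the plus strand at chr7:118597297-118675086 (GRCm38) and has 24 merged exons of 4470 bases in all. Male KO mice on chow were at 2.37, 1.45, 5.48 and 4.73 CPM, while male WT mice on chow held 1 read among them. The ratio of pooled counts was 514 with an exact 95% counting interval of 91.9 to 20320. On SC-435, 0 reads were counted in the 4 male KO mice, at least 195-fold lower than on chow when the group is set at 3 reads in all. Female KO mice on chow held 13 reads among them, at 0.077, 0.077, 0.0605 and 0.0485 CPM, against 3 reads in female WT mice, all in replicate 2. The female groups overlapped, and female KO mice on SC-435 held 9 reads, 8 of them in replicate 4 at 0.182 CPM. The gene passed the filter on low counts in males and did not pass in either female comparison of genotype or diet, so that the pattern by which it was picked was present in males alone in these 32 mice. The 3 highest levels outside the male KO mice on chow were 1.26 CPM in male WT SC-435 replicate 4, 0.182 CPM in female KO SC-435 replicate 4 and 0.077 CPM among female KO mice on chow.

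Of the other 7 genes of the TMC family, none of 5 tested in females and none of 4 in males passed the test between KO and WT mice on chow. Of all genes tested there, 5.67% rose in females and 0.914% in males. *Tmc7*, which lies 12561 bases from *Tmc5*, was at 2.07 CPM in female and 6.01 CPM in male KO mice on chow and was called lower in females (log2 fold change -1.52, edgeR adjusted p = 0.00605), 1 of 5 family members tested, beside 0.827% of all genes. *Tmc4* was at 5.93 and 4.75 CPM. *Gde1*, on the other side of *Tmc5*, had a log2 fold change of -0.84 in female KO mice (edgeR adjusted p = 0.00729), short of the change of 1 required for a call.

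*Cpe* (ENSMUSG00000037852) lies on the minus strand at chr8:64592542-64693054 (GRCm38) and has 12 merged exons of 2609 bases in all. It was not silent in WT liver, at 3.15, 2.14, 0.534 and 0.546 CPM in female and 1.17, 0.410, 0.396 and 3.16 CPM in male WT mice on chow. KO mice on chow were at 26.2, 25.4, 45.02 and 1.55 CPM in females and at 3.63, 1.84, 15.3 and 37.4 CPM in males. In each sex 3 of 4 KO mice were above every WT mouse and the lowest KO mouse lay within the WT range. The log2 fold change was 3.94 (standard error 0.88) in females and 3.54 (standard error 1.05) in males. Leaving out 1 mouse gave male values from 2.43, without KO chow replicate 4, to 4.55, without WT chow replicate 4. On SC-435, female KO mice were at 0.795, 0.781, 0.825 and 0.477 CPM, all below every female KO mouse on chow, and male KO mice were at 1.63, 2.41, 0.423 and 0.644 CPM. The mean was then 0.72 CPM in females and 1.28 CPM in males, against 1.59 and 1.29 CPM in WT mice on chow.

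Of 16 other genes of peptide hormone processing, 7 were tested, and 2 rose in female and 0 in male KO mice on chow, beside 5.67% and 0.914% of all genes. *Cpxm1* and *Cpz*, carboxypeptidases of the extracellular space from the same family, rose by 2.61 (standard error 0.40, edgeR adjusted p = 0.00333) and 1.07 (edgeR adjusted p = 0.0259) on the log2 scale in females. *Cpxm1* fell with SC-435 in female KO mice by 2.23 (edgeR adjusted p = 0.00447) and in male KO mice by 2.38 (edgeR adjusted p = 0.00838). Pancreatic islet and neuroendocrine markers did not accompany *Cpe*: 7 of the 10 genes had at most 3 reads in every mouse, 3 of them none at all, and their sum lay between 0.282 and 1.09 CPM in KO mice on chow against 0.297 to 1.404 CPM in WT mice. Of 10 pancreatic acinar markers, 2 were tested and *Cela1* was lower in female KO mice (log2 fold change -1.79, edgeR adjusted p = 0.0226), beside 1.01% of all genes.

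*Lrtm2* (ENSMUSG00000055003) lies on the minus strand at chr6:119315133-119330766 (GRCm38), with 5 merged exons of 4102 bases in all. In WT mice on chow it was at 0.0517, 0.0470, 0.0486 and 0.285 CPM in females and at 0.117, 0.0274, 0.173 and 0.0778 CPM in males. KO mice on chow were at 25.99, 48.6, 42.5 and 12.2 CPM in females and at 7.04, 5.43, 11.8 and 10.2 CPM in males. These groups did not overlap, and with a highest over lowest mouse of 3.98 in females and 2.17 in males the KO mice were closer together than for *Ly6d*, *Sprr1a* or *Cpe*. The log2 fold change was 8.16 (standard error 0.62) in females and 6.44 (standard error 0.51) in males, and without female WT chow replicate 4 the female value was 9.27. On SC-435, KO mice were at 15.6, 13.2, 14.3 and 10.6 CPM in females and at 6.30, 3.75, 4.94 and 6.17 CPM in males. These ranges overlapped those of KO mice on chow in both sexes, with log2 fold changes of -1.27 (standard error 0.34) and -0.70 (standard error 0.26). Of the rise over WT mice on chow, 41.3% remained in females and 60.9% in males, whereas 4.32% and 4.11% remained for *Ly6d* and 0.872% and 0.575% for *Sprr1a*. KO mice on SC-435 were 124-fold above WT mice on chow in females and 53.5-fold in males, and 373-fold and 131-fold above WT mice on SC-435, with no overlap. The order of means was female KO chow, female KO SC-435, male KO chow, male KO SC-435 and the WT groups, of which the female KO chow and female KO SC-435 mice overlapped, as did each next pair of KO groups.

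*Lrtm2* lies within *Cacna2d4*, a gene of a calcium channel subunit on the plus strand at chr6:119236526-119352407, and the 2 genes share 0 exon bases. In females *Cacna2d4* was at 0, 0, 0.121 and 0.0712 CPM in WT mice on chow and at 1.03, 2.25, 1.63 and 0.340 CPM in KO mice on chow. It rose by 4.68 (standard error 0.82, edgeR adjusted p = 0.00596) on the log2 scale in females and went from 0.0519 to 0.403 CPM in males (edgeR adjusted p = 0.0975). KO mice on SC-435 were at 0.718 CPM in females and 0.156 CPM in males. Exon reads of the 2 genes fall on separate bases also without strand. Whether the reads were counted by strand is not given in the sources used here, and without strand unspliced reads of *Cacna2d4* that lie on *Lrtm2* exons cannot be told apart from those of *Lrtm2*. *Dcp1b* and *Adipor2*, the next genes outward, did not pass the test in either genotype comparison on chow (edgeR adjusted p = 0.13 and 0.0862 in females).

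**Figure D2:**
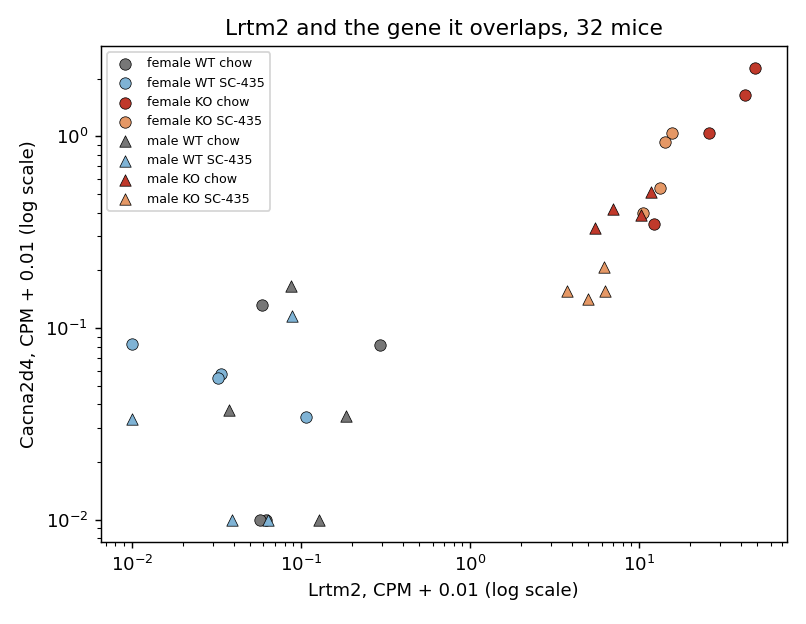
CPM plus 0.01 of *Lrtm2* (x axis) and *Cacna2d4* (y axis), both on log scales, for 32 mice, females as circles and males as triangles. All 16 KO mice lie to the right of all 16 WT mice, and within KO mice females on chow reach the highest levels of both genes.

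Of 28 leucine-rich repeat membrane protein genes, 12 were tested in females, of which 3 rose and 1 fell in KO mice on chow, beside 5.67% and 1.01% of all genes, and 0 of 10 passed in males. *Flrt3* rose by 2.84 (standard error 0.61, edgeR adjusted p = 0.0131), from 0.0718 to 0.537 CPM, and *Flrt2* by 1.71 (standard error 0.32, edgeR adjusted p = 0.0078). *Lrtm1*, the paralog of *Lrtm2*, went the other way, from 14.7 to 3.54 CPM in females (log2 fold change -2.07, edgeR adjusted p = 0.0431). With SC-435 *Lrtm1* rose in female KO mice by 2.80 (edgeR adjusted p = 0.0109) and in male KO mice by 2.82 (edgeR adjusted p = 0.00129).

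Across the genotype comparison on chow, 3 of the 5 genes in females and 4 of the 5 in males had every KO mouse above every WT mouse, where 12.0% and 7.89% of all genes tested did so. In KO mice, 3 genes in females and 2 in males had every mouse on SC-435 below every mouse on chow, beside 10.8% and 12.4% of all genes. These comparisons chose the genes, and nothing is read from the counts.

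SC-435 by itself gave no called change in these genes in WT mice. They were picked as nearly silent in WT liver, which in part fixes this outcome. On the inhibitor, WT mice were at 0 to 0.0244 CPM of *Sprr1a* in females and 0 to 0.118 CPM in males, and at 0 to 0.0975 and 0 to 0.0791 CPM of *Lrtm2*. *Ly6d* was at 0.308 to 0.896 and 0.264 to 2.55 CPM and *Cpe* at 0.448 to 2.34 and 0.409 to 1.42 CPM, and these ranges overlapped those of WT mice on chow. In WT mice, *Ly6d* and *Cpe* passed the filter on low counts and neither passed the test, beside 1.1% of all genes in females and 0.0394% in males. For *Ly6d* the log2 fold change was 0.36 (standard error 0.42, edgeR adjusted p = 0.68) in females and 1.49 (standard error 0.87, edgeR adjusted p = 0.836) in males, and for *Cpe* -0.48 (standard error 0.66, edgeR adjusted p = 0.735) and -0.45 (standard error 0.69, edgeR adjusted p = 0.889). Without male WT SC-435 replicate 4, the mouse with the high *Lcn2*, the male *Ly6d* value was 0.42 (standard error 0.77, edgeR adjusted p = 0.93). In that mouse *Ly6d* was at 2.55 CPM against 0.264 to 0.672 CPM in the other 3, and *Tmc5* held 47 reads (1.26 CPM) where the other 3 held none. *Sprr1a*, *Tmc5* and *Lrtm2* were too low for the fit, and the exact permutation test of CPM gave two-sided p between 0.2 and 1.0 for them, where 4 against 4 mice cannot go below 0.0286.

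*Lrtm2* differed between the sexes among KO mice on chow, whereas *Sprr1a*, *Ly6d* and *Cpe* did not pass the test. Calls made up 1.57% of the 16561 genes in this fit, 0.743% with the higher level in females and 0.827% with the lower. *Tmc5* passed the filter here through the male KO mice on chow alone, which picked it, and is described without a test. It held 13 reads in the 4 females and 702 in the 4 males, with all 4 females below all 4 males (6.57% of genes) and a log2 fold change of -5.65 (standard error 0.53). *Lrtm2* was 3.75-fold higher in females (log2 fold change 1.92, standard error 0.41, edgeR adjusted p = 0.0431), with all 4 females above all 4 males (5.33% of genes) and an exact permutation p of 0.0286. The *Lrtm2* call was lost without any of 6 of the 8 mice (adjusted p up to 0.119), with library size as the only scaling (adjusted p = 0.0643) and with the replicate number as a block (adjusted p = 0.154), while its log2 fold change stayed between 1.66 and 2.18. Among KO mice on SC-435 the mean of *Lrtm2* was 13.4 CPM in females and 5.29 CPM in males, a ratio of 2.53. The sexes on SC-435 were not compared by a fit. For *Sprr1a*, *Ly6d* and *Cpe* the log2 differences were -0.61 (standard error 0.91), -0.04 (standard error 1.23) and 0.78 (standard error 0.98), with edgeR adjusted p of 0.791, 0.991 and 0.745. Without male KO chow replicate 4 the *Ly6d* and *Cpe* differences were 1.82 and 1.83. Given these standard errors, the missed threshold does not show that the sexes were alike.

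**Figure D3:**
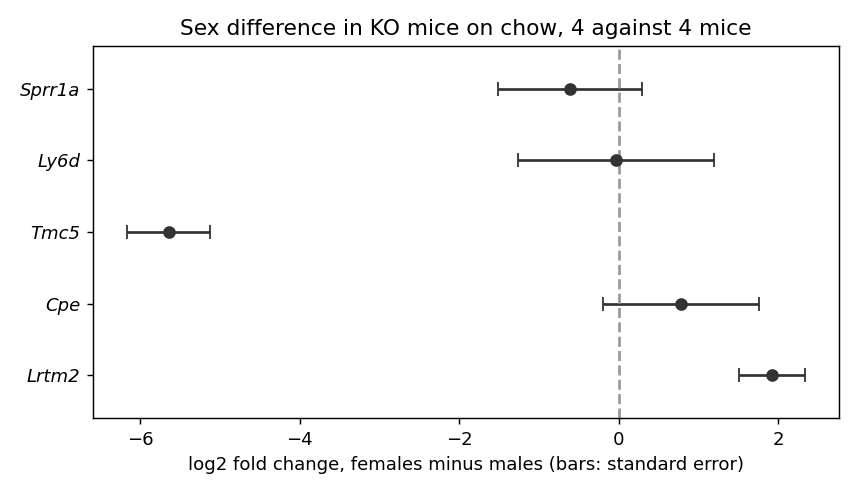
log2 fold change of females minus males among KO mice on chow for each gene, with its standard error (bars), 4 against 4 mice. *Tmc5* lies at -5.65 and *Lrtm2* at 1.92, and the other 3 lie between -0.61 and 0.78 with wider bars.

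The difference of the KO effects between the sexes, fitted over 16 mice and added after the data were seen, was -6.74 (standard error 1.79) for *Tmc5* and 1.77 (standard error 0.95) for *Lrtm2* on the log2 scale. For the others it was -3.96 (standard error 2.31) for *Sprr1a*, -0.54 (standard error 1.71) for *Ly6d* and 0.45 (standard error 1.38) for *Cpe*. It is built from comparisons that chose the genes and is given without a test.

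The KO mice on chow differed widely among themselves. Female replicate 4 was the lowest of the 4 for all 5 genes, and male replicate 2 was the lowest and replicates 3 and 4 the highest of the males for all 5. For *Tmc5* the females held only 4, 4, 3 and 2 reads, so their order for this gene is within counting error. The summed markers of cholangiocytes and of stellate cells and fibroblasts were also lowest in female replicate 4 and male replicate 2. So were those of mesothelium and of urothelium and gallbladder, the latter with a highest over lowest mouse of only 1.188 and 1.085. Cholangiocyte markers were at 324, 473, 428 and 222 CPM in females and at 235, 201, 581 and 1288 CPM in males, against 58.4 to 119 CPM over both WT chow groups. A large part of these sums was *Spp1*, at 144.3, 253.7, 250.5 and 116.4 CPM in females and 143.1, 123.8, 453 and 1147 CPM in males. *Krt19* was at 4.74, 8.17, 5.02 and 3.71 CPM in females and 4.42, 2.35, 5.95 and 4.28 CPM in males. Stellate and fibroblast markers were at 428, 672, 833 and 330 CPM in females and 315, 251, 610 and 1126 CPM in males. Macrophage markers, at 508, 770, 651 and 538 CPM in females and 292, 344, 442 and 1208 CPM in males, were lowest in replicate 1 of both sexes. Neutrophil, plasmacytoid dendritic cell and T cell markers were lowest in female replicate 4 and in male replicate 1. These markers and those of macrophages were highest in male replicate 4. Hepatocyte markers ran the other way in females, where replicate 4 was highest, and were highest in male replicate 2. Of 18 cholangiocyte markers, 11 of 16 tested rose in female and 5 of 16 in male KO mice on chow, beside 5.67% and 0.914% of all genes, including *Tspan8* (log2 fold change 3.67, edgeR adjusted p = 0.00131 in females) and *Spp1*. Of 12 macrophage markers 7 rose in females and 2 in males, of 12 stellate and fibroblast markers 6 and 1, and of 10 neutrophil markers 3 of 3 tested and 0 of 3, beside the same shares of all genes. Median log2 changes of the markers tested in females and males were 1.66 and 1.87 for cholangiocytes and 1.17 and 1.02 for macrophages. For stellate cells and fibroblasts they were 1.06 and 1.46, and for neutrophils 1.87 and 2.07, beside -0.0187 and 0.0394 over all genes. Fewer calls in males thus went with medians of similar size. Of 12 hepatocyte markers, 1 fell in females, *Apoa1* (log2 fold change -1.05, edgeR adjusted p = 0.0179), beside 1.01% of all genes. Their part in the levels of the 5 genes was not tested.

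**Figure D4:**
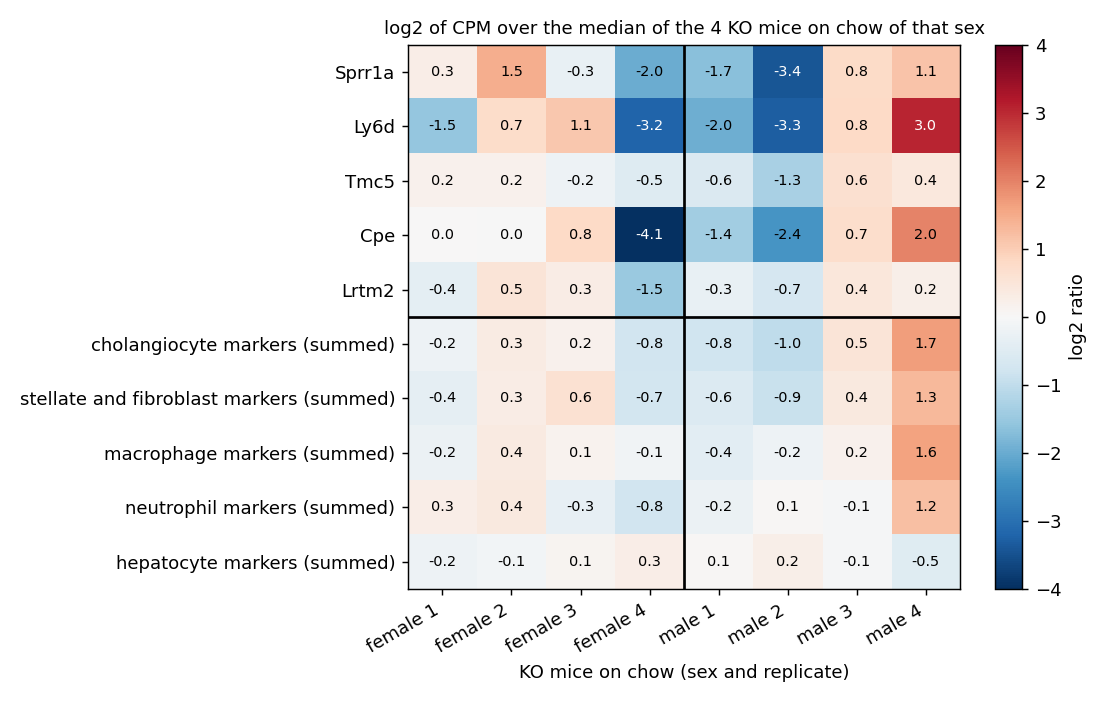
log2 of each KO chow mouse over the median of the 4 mice of its sex, for the 5 genes (upper rows) and the summed CPM of 5 marker lists (lower rows), by sex and replicate. Female 4 and males 1 and 2 lie below their medians for all 5 genes, and male 4 is the highest male for *Ly6d*, *Sprr1a* and *Cpe*. The *Tmc5* values of females rest on 2 to 4 reads per mouse.

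Of 26 genes of injury and stress response, 24 were tested, and 4 rose in female and 7 in male KO mice on chow, beside 5.67% and 0.914% of all genes. Their summed level among KO mice on chow was 406, 494, 472 and 378 CPM in females and 395, 424, 518 and 527 CPM in males, lowest in female replicate 4 and highest in male replicates 3 and 4. In WT mice on chow the sum spanned 187 to 378 CPM in females and 178 to 342 CPM in males. On SC-435 it spanned 380 to 708 CPM in female and 196 to 2016 CPM in male WT mice. *Fos*, an AP-1 subunit gene, rose by 2.11 (standard error 0.43, edgeR adjusted p = 0.0104) in females and 4.71 (standard error 0.79, edgeR adjusted p = 0.0349) in males. Among male KO mice on chow *Fos* was at 19.99, 24.4, 9.78 and 2.80 CPM, with replicates 1 and 2 above 3 and 4, the reverse of *Sprr1a* and *Ly6d*. *Jun*, encoding another AP-1 subunit, was at 55.1, 53.9, 58.7 and 50.5 CPM in the same mice and at 19.6, 26.9, 19.8 and 14.6 CPM in female KO mice on chow. It was lower in females (log2 fold change -1.42, standard error 0.16, edgeR adjusted p = 0.0025). *Jun* was the 1 of 24 tested genes of this list called between the sexes, beside 1.57% of all genes. The part of *Fos* and *Jun* in the levels of the 5 genes was not tested.

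The genes whose pattern over the 8 group means was most like each of the 5 were named by Pearson's r of log2(CPM + 0.1) among 12542 protein-coding genes, as a description over 8 points that share the same mice. For *Sprr1a* they were *Timp1* (r = 0.996), *Trem2* (0.996) and *Golm1* (0.995), and for *Ly6d* *Amz1* (0.991), *Clec4n* (0.990) and *Arhgap44* (0.988). For *Tmc5* they included the neutrophil chemoattractant gene *Cxcl1* (0.945) and *Eif4g3* (0.925). *Cxcl1* was at 37.7, 60.8, 13.2 and 11.3 CPM in male KO mice on chow, an order unlike that of *Tmc5*. For *Cpe* they were *Arhgap9* (0.994), *Tyrobp* (0.992) and *Rasa4* (0.983), and for *Lrtm2* *Rap1gap* (0.993), *Fgfbp3* (0.977) and *Scn8a* (0.960), a sodium channel gene. Over the 8 group means *Sprr1a* was at r = 0.967 with *Ly6d* and 0.952 with *Cpe*, whereas *Tmc5* and *Lrtm2* were at r = 0.258.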

How the data were processed

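Livers of 32 mice were sequenced as poly-A RNA. The authors deposited read counts per gene, which are whole numbers without normalization, and FPKM values, which were not used here. The submitters' processing notes name HISAT2 2.0.5, featureCounts 1.5.0-p3, DESeq2 1.20.0, GATK 4.1.1.0 and mm10, and strandedness is not given in the sources used here. The authors' deposited gene lengths, in bases, were used for levels per kilobase. Columns of the authors' fold changes and p-values were not used. Each library is an individual mouse, and p-values set a difference between groups against the spread between mice.

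CPM is the count over the library total scaled by TMM over all 32 libraries. Pairs of groups were fitted with edgeR 4.0.16 in R 4.3.3 (filterByExpr, TMM, glmQLFit, glmQLFTest) on 8 libraries, with Benjamini-Hochberg adjustment over all genes tested and calls at adjusted p under 0.05 with a log2 change larger than 1, and were tested on simulated data. Standard errors come from the F statistic. A group with no read was set at 3 reads over the group, and the other ratios with 1 to 3 reads carry exact 95% intervals. Named genes are the 5 genes, *Cyp2c70*, overlapping and nearest genes, the 3 most alike genes per member, and up to 3 called genes in females of each list plus its gene of highest CPM. A gene that this rule names for *Tmc5* is not reported here. The members and lists were chosen with earlier results of these data known. *Lcn2* in single mice, *Jun* and *Grhl1* were named after their values were seen.

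The other lists gave 1 of 7 tested T cell markers higher in female KO mice on chow (*Cd8a*) and 0 of 6 in males, and 1 of 4 urothelium and gallbladder markers (*Upk3b*) and 1 of 8 mesothelium markers (*Upk3b*) lower in females and 0 in males. Of all genes tested, 5.67% rose in females and 0.914% in males, and 1.01% fell in females. Replicate numbers did not pair the mice (correlations of deviations between -0.305 and 0.219). Alternatives were DESeq2 1.42.0, median-of-ratios factors, scaling by library size alone, testing without the filter, a replicate block, all 32 libraries in a single fit and leaving out each mouse.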

Additional observations from a re-analysis of the deposited data

Results flagged for a closer look

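Within groups of 4 mice, the gap of the highest or lowest mouse as a share of the range was compared with Dixon's 95% critical value in 39 groups, of which chance alone marks about 1 in 20. It was passed in 9. For *Tmc5* these were the highest mice of female WT chow (replicate 2, 0.0705 CPM), female WT SC-435 (replicate 4, 0.0224 CPM), female KO SC-435 (replicate 4, 0.182 CPM), male WT chow (replicate 3, 0.0248 CPM) and male WT SC-435 (replicate 4, 1.26 CPM). For *Sprr1a* they were the lowest mouse of female WT SC-435 (replicate 4, 0.0 CPM) and the highest of male WT chow (replicate 4, 0.0259 CPM). *Cpe* was lowest in female KO SC-435 replicate 4 (0.477 CPM), and *Lrtm2* highest in female WT chow replicate 4 (0.285 CPM). In groups where most mice have no read, 1 to 3 reads in a mouse are enough to pass.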

How the results depend on the processing

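The *Lrtm2* sex difference lost the call in 8 alternatives, and no called or described member value changed direction. Among values not called, *Ly6d* in females against males lay between -0.63 and 1.82, and *Cpe* with SC-435 between -1.10 and 0.08 in WT females and between -0.76 and 0.56 in WT males, leaving out 1 mouse. The KO against WT value moved to 9.27 for *Lrtm2* without female WT chow replicate 4, to 11.66 for *Sprr1a* without male WT chow replicate 4 and to 10.21 for *Tmc5* without male WT chow replicate 3 (from 8.16, 9.92 and 8.49). The *Sprr1a* and *Tmc5* fits then hold no WT read of the gene, so their size is not a measured ratio. With SC-435 in male KO mice, *Ly6d* was at -2.44 without male KO chow replicate 4 and -2.68 with the replicate block, against -4.33, *Cpe* at -2.43 without the same mouse, against -3.50, and *Tmc5* at -9.55 with DESeq2, against -10.28. Both of these *Tmc5* values rest on 0 reads in male KO mice on SC-435 and are likewise no measured ratios. Without male WT chow replicate 1 the KO against WT values of males were 9.71 for *Sprr1a*, 7.50 for *Ly6d*, 8.28 for *Tmc5*, 3.48 for *Cpe* and 6.49 for *Lrtm2*. Library size as the only scaling moved the median of all genes from -0.02 to 0.17 in KO against WT females and from 0.04 to 0.29 in males, and from -0.02 to -0.18 and from -0.03 to -0.23 for SC-435 in female and male KO mice.

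The number of genes called moved more. For KO against WT males (166) it was 967 with DESeq2, 273 without the filter, 17 with the replicate block, 1677 in the fit of 32 libraries and 10 to 637 leaving out 1 mouse, with 637 without male WT chow replicate 1 and 10 without replicate 3. For SC-435 in KO males (1031) it was 1576 with DESeq2, 679 with the block and 499 to 1429 leaving out 1 mouse, and in KO females (948) 583 to 1505. In WT females (173) it was 267 with DESeq2, 105 in the fit of 32 libraries and 68 to 171 leaving out 1 mouse. In WT males (6) it was 1 with library size only, 138 with DESeq2, 12 without the filter, 0 with the edgeR replicate block, 172 in the fit of 32 libraries and 1 to 160 leaving out 1 mouse, and 931 genes had an unadjusted p under 0.05 in the main edgeR test. For females against males (260) it was 510 with DESeq2, 144 with the block, 397 in the fit of 32 libraries and 148 to 417 leaving out 1 mouse. KO against WT females (1082) spanned 724 to 1596. Of the 3 genes most like each member, 1 stayed for *Sprr1a* and 1 for *Ly6d* over 32 mice, 0 for *Cpe*, and 0 for *Tmc5* both over 32 mice and with a pseudocount of 1. The cause was not tested.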
